A study of Mus musculus with 9 samples.

Results

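The 8 genes described here encode surface molecules through which B cells and T cells instruct each other: Cd80, Cd86, Cd83, Icosl, Cd274, Pdcd1lg2, Btla and Tnfrsf14. They were taken by gene name from the count table of 55536 genes, and each name had 1 row. All 8 were also among the 12849 genes with enough counts to be tested. RNA was sequenced from spleen B cells of mice labelled pre-GC, a stage ahead of the germinal centre, the site of antibody mutation and selection. Of the 9 libraries, 4 are labelled WT and 5 p52Ki, the latter with titles in p52ki/ki, as is written for an allele carried on each chromosome copy. p52 is the NF-kB subunit made from Nfkb2, and the series title pairs it with the transcription factor ETS1. The sources used here do not give the construction of the knock-in, the age, strain or immunisation of the mice, or the sorting gate. Whether each library came from its own mouse is not stated, and the p-values then measure only the spread among these samples, some of which may be technical.

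CD80 and CD86 are the B7 ligands of CD28, the main costimulatory receptor of T cells, and of its inhibitory relative CTLA-4. ICOSL engages ICOS on follicular helper T cells. CD274 (PD-L1) and PDCD1LG2 (PD-L2) bind the inhibitory receptor PD-1, which follicular helper T cells carry at high levels. BTLA is an inhibitory receptor of B and T cells whose partner is the TNF receptor family member TNFRSF14 (HVEM). CD83 is an activation marker that stabilises CD86 and MHC class II at the cell surface. In the germinal centre, CD83 and CD86 mark the light zone, where B cells meet T cells, as against the dark zone, where they divide.

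The depth, as summed gene counts, was 7368604 to 7937579 in WT and 4492160 to 6647650 in p52Ki, and genes with at least 1 count numbered 14033 to 14793 in WT and 15504 to 16634 in p52Ki. Of the 12849 genes tested with edgeR, 8.53% passed an adjusted p of 0.05, 4.49% higher and 4.04% lower in p52Ki. The median log2 fold change of all genes tested was 0.03. The 8 B cell identity genes, such as Ms4a1 and Pax5, summed to 10803 to 11881 CPM (counts scaled to a common library size) in WT and 12105 to 15758 CPM in p52Ki.

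Of the 8 genes, 1 rose (Cd274) and 2 fell (Cd86 and Cd83) in p52Ki, where 8.53% of all genes were called. Cd274 rose 3.56-fold in mean level, Cd86 was 2.06-fold and Cd83 1.63-fold higher in WT. Cd80, Icosl, Pdcd1lg2, Btla and Tnfrsf14 did not pass. The same 3 genes had WT and p52Ki libraries that did not overlap, against 13.8% of all genes tested, with 7.3% separated upwards and 6.53% downwards. DESeq2, run as an alternative, called 13.7% of all genes and these 3 of the 8. The median log2 fold change of the 8 was -0.26, with 3 above 0 and 5 below. In bulk RNA, fewer cells that carry a transcript and less of it per cell cannot be told apart.

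**Figure D1:**
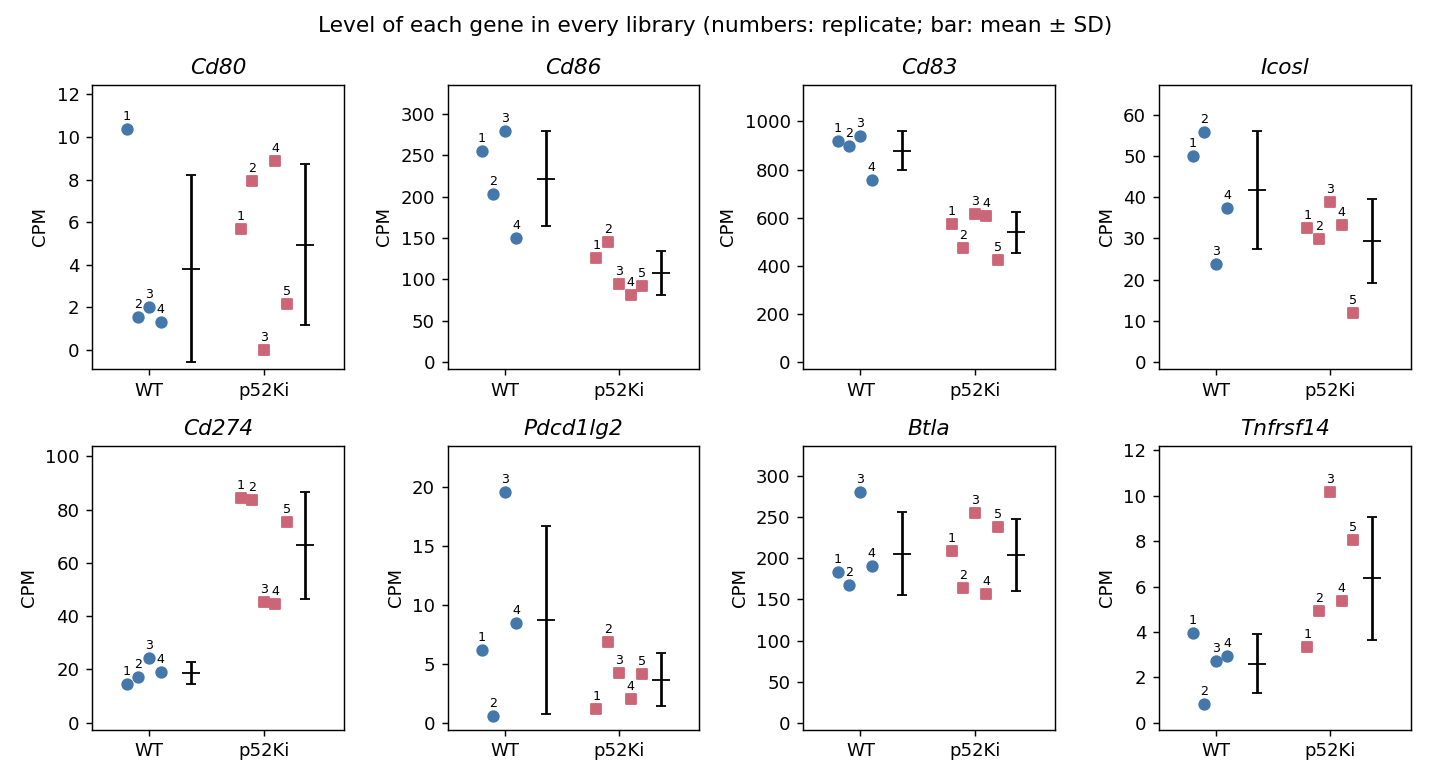
Level of each gene in CPM (vertical axes, linear and different for each gene) in 4 WT (circles) and 5 p52Ki (squares) libraries, numbered by replicate, with mean ± SD as bars. The genotypes do not overlap for Cd86, Cd83 and Cd274 and overlap for the other genes, and WT replicate 1 stands alone for Cd80 at 10.4 CPM.

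The CD28 ligand Cd86 (ENSMUSG00000022901, GRCm38 chromosome 16, 36603869 to 36666081, minus strand) gave 255, 203, 279 and 150 CPM in the WT libraries, taken in the order of their numbers as in all that follows. The p52Ki libraries gave 126, 146, 94.6, 80.6 and 92.1 CPM. Every p52Ki library lay below every WT library, although the highest p52Ki library, replicate 2, came within a few CPM of the lowest WT library, replicate 4. Mean levels of 222 ± 57.6 CPM in WT and 108 ± 27.1 CPM in p52Ki (SD, n = 4 and 5) resulted. The log2 fold change was -1.04 ± 0.23 (SE, edgeR adjusted p = 0.0169). The call was lost without WT replicate 3 or p52Ki replicate 3, at an edgeR adjusted p of 0.0557 and 0.0516.

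The other CD28 ligand, Cd80 (ENSMUSG00000075122, chromosome 16, 38455561 to 38496335, plus strand), lies 1.79 Mb from Cd86 and was the least abundant of the 8 genes per length of transcript. It had 79, 11, 14 and 10 counts in WT replicates 1 to 4, or 10.4, 1.52, 1.99 and 1.33 CPM. In p52Ki replicates 1 to 5 it had 39, 45, 0, 58 and 10 counts, or 5.66, 7.94, 0, 8.89 and 2.17 CPM. WT replicate 1 was the highest of all 9 libraries. Under counting noise alone, the 0 of p52Ki replicate 3 allows up to about 3 expected counts, or 0.484 CPM. Reads here are not independent molecules, so the level may have been higher than that. The log2 fold change was 0.37 ± 1.13 (SE, edgeR adjusted p = 0.906), with a 95% interval from -2.09 to 2.84, so a change of the size of that of Cd86 in either direction lies within it.

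Cd83 (ENSMUSG00000015396, chromosome 13, 43784775 to 43803132, plus strand) was the most abundant of the 8. The WT libraries gave 918, 898, 939 and 758 CPM, and the p52Ki libraries 576, 475, 614, 606 and 424 CPM. The p52Ki libraries again all lay below the WT libraries, with replicates 5 and 2 lowest. From a WT mean of 878 ± 81.8 CPM to a p52Ki mean of 539 ± 85.0 CPM (SD, n = 4 and 5), the log2 fold change was -0.70 ± 0.14 (SE, edgeR adjusted p = 0.0115). With each library left out in turn the adjusted p ran from 0.0124 to 0.0426. Counts of Cd83, 1950 to 6996 per library, were the highest among the 8 genes, and its spread between libraries was the smallest, at 9.32% of the mean in WT and 15.8% in p52Ki.

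Icosl (ENSMUSG00000000732, chromosome 10, 78069302 to 78083913, plus strand) was measured at 50.0, 55.9, 23.7 and 37.3 CPM in WT. In p52Ki it was measured at 32.5, 29.8, 38.9, 33.2 and 11.9 CPM. The genotypes overlapped, with WT replicate 3 below 4 of the 5 p52Ki libraries and p52Ki replicate 5, the shallowest library, lowest of all. The means were 41.7 ± 14.3 and 29.3 ± 10.2 CPM, and the log2 fold change of -0.51 ± 0.36 (SE) did not pass (edgeR adjusted p = 0.475, 95% interval -1.30 to 0.28).

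The PD-1 ligand genes Cd274 (ENSMUSG00000016496, chromosome 19, 29367455 to 29388095) and Pdcd1lg2 (ENSMUSG00000016498, chromosome 19, 29410919 to 29471161) are neighbours on the plus strand, with 22.8 kb between them. Since p52 is a DNA-binding protein and this adjacent pair differed in its values, the bases before each start are shown, as RefSeq gives them for GRCm38.p6, with 250 bases up to the start site. Capitals mark matches to an NF-kB pattern, GGG followed by any 5 bases and CC, searched on both strands.
Cd274, chr19:29367188-29367437: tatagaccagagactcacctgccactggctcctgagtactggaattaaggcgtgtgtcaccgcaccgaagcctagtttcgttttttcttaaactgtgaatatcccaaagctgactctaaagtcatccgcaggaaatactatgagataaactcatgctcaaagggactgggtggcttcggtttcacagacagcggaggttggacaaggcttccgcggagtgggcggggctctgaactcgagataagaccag
Pdcd1lg2, chr19:29410669-29410918: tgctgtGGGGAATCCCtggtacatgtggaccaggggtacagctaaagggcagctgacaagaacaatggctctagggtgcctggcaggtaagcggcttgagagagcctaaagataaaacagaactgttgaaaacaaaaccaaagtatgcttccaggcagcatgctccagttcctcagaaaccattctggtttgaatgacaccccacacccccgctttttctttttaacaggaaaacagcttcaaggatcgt
The Cd274 window held no match, and the Pdcd1lg2 window held GGGGAATCCC, which matches on both strands, 244 to 235 bases before the start. Such letters are common, being found in 45.8% of 32851 promoter windows of this length. Of the 8 genes, 6 had a window in the RefSeq table (Cd83 and Cd86 had none), and 4 of these held the NF-kB pattern, namely Cd80, Icosl, Pdcd1lg2 and Tnfrsf14. The RefSeq starts of Cd80 and Tnfrsf14 lie inside the GENCODE gene bounds given here, so their windows fall within the annotated genes and not before them. The windows of Icosl and Btla, which end at 78069367 and 45224336, run past the gene starts at 78069302 and 45224315 and overlap the genes in part. Only the Tnfrsf14 window among the 6 held the ETS letters CNGGAAGT (7.58% of all windows) or the interferon regulatory factor pattern of GAAA, any 2 bases and GAAA (2.98% of all windows), again on either strand. The shorter ETS core GGAAG was in 4 of the 6 windows, against 64.1% of all windows. A match is a string of letters, and binding was not measured here.

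Cd274 was low in WT, with 14.6, 17.0, 24.3 and 19.0 CPM. The p52Ki libraries held 84.2, 83.4, 45.4, 44.4 and 75.4 CPM. Every p52Ki library lay above every WT library, and the p52Ki libraries fell into a higher trio (replicates 1, 2 and 5) and a lower pair (replicates 3 and 4). On means of 18.7 ± 4.14 CPM in WT against 66.6 ± 20.1 CPM in p52Ki (SD, n = 4 and 5), the difference was 1.83 ± 0.30 in log2 (SE, edgeR adjusted p = 0.00462). Its adjusted p ran from 0.00275 to 0.0151 with each library left out in turn. The antisense gene AC119228.1 shares 511 exonic bases with Cd274. The libraries carry no strand mark, so reads within the shared stretch cannot be assigned to either gene. How many such reads there were was not measured, and the strand setting of the counting is not given. AC119228.1 itself rose, from 8.13 ± 4.37 CPM in WT to 31.7 ± 11.2 CPM in p52Ki, or by 1.96 in log2 (edgeR adjusted p = 0.0243).

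Pdcd1lg2 had the opposite sign and did not pass. Its levels were 6.17, 0.553, 19.6 and 8.49 CPM in WT, against 1.16, 6.88, 4.20, 1.99 and 4.13 CPM in p52Ki. The WT values spanned those of p52Ki, with WT replicate 2 lowest and WT replicate 3 highest of all 9. On means of 8.71 ± 8.0 and 3.67 ± 2.23 CPM, the log2 fold change was -1.24 ± 0.87 (SE, edgeR adjusted p = 0.467), and it was -0.45 without WT replicate 3. The counts, 4 to 138 per library, leave a 95% interval from -3.15 to 0.66.

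Btla (ENSMUSG00000052013, chromosome 16, 45224315 to 45257670, plus strand) had means that lay close together in the 2 genotypes. The values were 184, 168, 281 and 191 CPM for WT, and 209, 163, 255, 157 and 239 CPM for p52Ki. Replicate 3 was highest in each genotype, and the ranges overlapped almost fully. The means were 206 ± 51.0 and 205 ± 43.9 CPM, with a log2 fold change of -0.01 ± 0.20 (SE, edgeR adjusted p = 0.988). Its sign changed with the scaling, at 0.02 with DESeq2 size factors. The 95% interval, -0.45 to 0.43, does not hold a change as large as those fitted for Cd86, Cd83 or Cd274.

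Tnfrsf14 (ENSMUSG00000042333, chromosome 4, 154921933 to 154928563, minus strand), the partner of Btla, was counted only 6 to 63 times per library. WT libraries had 3.94, 0.830, 2.70 and 2.92 CPM, whereas p52Ki libraries had 3.34, 4.94, 10.2, 5.36 and 8.04 CPM. All p52Ki libraries but replicate 1 lay above the WT libraries. The log2 fold change of 1.29 ± 0.72 (SE) did not pass (edgeR adjusted p = 0.339, 95% interval -0.28 to 2.85), on means of 2.60 ± 1.30 and 6.37 ± 2.72 CPM.

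**Figure D2:**
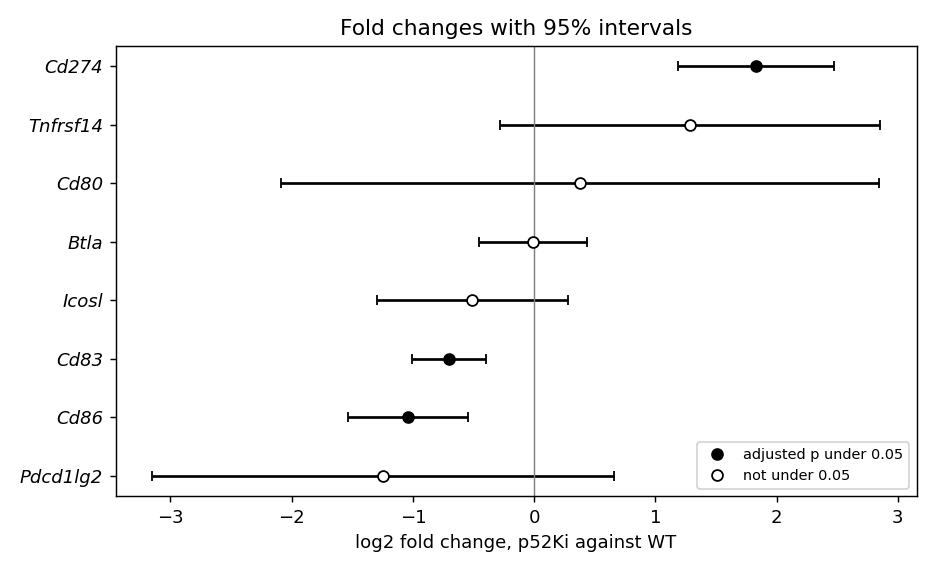
Log2 fold change of p52Ki against WT (horizontal axis) with its 95% interval for each of the 8 genes, from the edgeR fit to 4 WT and 5 p52Ki libraries. Filled points passed an adjusted p of 0.05 (Cd274, Cd83 and Cd86), and the widest intervals belong to Cd80, Pdcd1lg2 and Tnfrsf14, the 3 genes of fewest counts.

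To compare genes with each other, CPM was divided by exonic length in kilobases, giving a length-scaled level (RPKM). In WT the order of mean RPKM was Cd83 at 341 ± 31.8, Btla at 60.6 ± 15.0, Cd86 at 60.6 ± 15.7, Icosl at 9.03 ± 3.09, Cd274 at 5.17 ± 1.14, Pdcd1lg2 at 4.44 ± 4.08, Tnfrsf14 at 1.81 ± 0.901 and Cd80 at 1.03 ± 1.18. Only the steps from Cd83 to Btla and from Cd86 to Icosl exceeded the ranges of the WT libraries, and the other neighbours in the order overlapped. In p52Ki the order was Cd83 at 210 ± 33.0, Btla at 60.2 ± 12.9, Cd86 at 29.5 ± 7.40, Cd274 at 18.4 ± 5.54, Icosl at 6.34 ± 2.22, Tnfrsf14 at 4.43 ± 1.89, Pdcd1lg2 at 1.87 ± 1.14 and Cd80 at 1.33 ± 1.02. Here the steps from Cd83 to Btla, from Btla to Cd86 and from Cd274 to Icosl exceeded the ranges. Cd274 thus held place 5 in the WT order and place 4 in the p52Ki order. Its mean RPKM exceeded that of 42.8% of the genes tested in WT and of 74.5% in p52Ki, while Cd86 passed from 92.0% to 83.7%.

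Within a library a ratio of 2 genes does not depend on the scaling between libraries. The RPKM of Cd86 was 17.3, 11.8, 11.4 and 7.80 times that of Cd274 in WT replicates 1 to 4. In p52Ki replicates 1 to 5 it was 1.48, 1.73, 2.06, 1.79 and 1.21 times that of Cd274. Cd86 remained the more abundant of the pair in each of the 9 libraries, and the genotypes did not overlap in the ratio. The sum of Cd80 and Cd86 was 4.31 to 11.2 times that of Cd274 and Pdcd1lg2 in WT and 1.12 to 1.84 times in p52Ki. Btla to Cd274 gave 10.5 to 13.5 in WT and 2.09 to 5.99 in p52Ki. The RPKM of Cd83 over Cd86 overlapped, with 4.78 to 7.21 in WT and 4.64 to 10.7 in p52Ki. These ratios combine genes already described and were not tested.

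**Figure D3:**
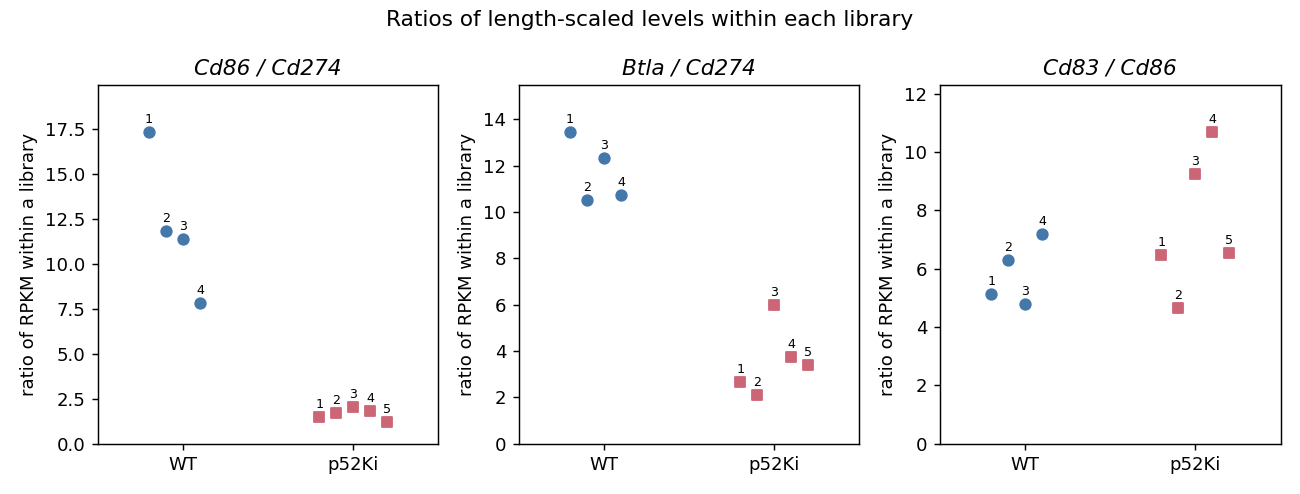
Ratio of RPKM values of 2 genes within each library (vertical axes from 0), for 4 WT (circles) and 5 p52Ki (squares) libraries numbered by replicate. Cd86 over Cd274 is at least 7.80 in WT and at most 2.06 in p52Ki, and Cd83 over Cd86 overlaps between the genotypes.

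Other genes of B cell contact with T cells were taken from a list of 27, of which 20 were tested, and 3 of them rose while 0 fell (median log2 fold change 0.16). Lgals9, which encodes galectin-9, rose from 62.6 ± 35.6 to 251 ± 59.5 CPM, or by 2.00 in log2 (edgeR adjusted p = 0.00852). Cd40, the receptor for the CD40 ligand of helper T cells, rose from 92.0 ± 14.5 to 191 ± 20.7 CPM. Tnfrsf13b, which encodes TACI, a receptor for BAFF and APRIL, was at 337 ± 46.4 and 489 ± 60.2 CPM. Its call (edgeR adjusted p = 0.0377) was kept only without p52Ki replicate 4 or 5 and was lost without any other library, at an adjusted p up to 0.0909. The adhesion ligand Icam1 was at 209 ± 82.0 and 145 ± 20.4 CPM without passing, and the receptor Il21r at 498 ± 49.3 and 364 ± 44.3 CPM (edgeR adjusted p = 0.235 and 0.0521).

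Among 10 genes for turnover and cleavage of these surface proteins, 8 were tested and 0 passed (edgeR), with a median log2 fold change of 0.20. March1, the ubiquitin ligase that removes CD86 and MHC class II from the surface, had 130 ± 31.1 CPM in WT against 89.8 ± 11.5 CPM in p52Ki (edgeR adjusted p = 0.125). Cmtm6, which protects CD274 from degradation, had 129 ± 33.7 CPM in WT against 204 ± 74.0 CPM in p52Ki (edgeR adjusted p = 0.185). Of a list of 7 genes, most of them for receptors of these ligands on T cells, 3 were tested and 0 passed. Cd5, which is in the list, is not taken here as such a receptor. Icos had 0 counts in all 9 libraries, and Cd28 had 0 in WT and 17 in p52Ki. Ctla4 and Cd5, the 2 of smallest p, had 97 and 39 counts in WT and 130 and 155 in p52Ki. Rgmb had 76 in WT and 83 in p52Ki, Cd160 6 and 20, and Pdcd1, which encodes PD-1, 51 and 26. These counts are summed over a genotype and can come from few libraries. In WT the SD exceeded the mean for Ctla4 (3.22 ± 6.44 CPM) and Cd5 (1.35 ± 2.70 CPM). It also did so there for Rgmb (2.64 ± 3.01 CPM), Pdcd1 (1.69 ± 2.72 CPM) and Cd160 (0.197 ± 0.394 CPM). The same held in p52Ki for Cd28 (0.521 ± 1.16 CPM), Rgmb (2.85 ± 3.35 CPM) and Pdcd1 (0.797 ± 1.78 CPM). Cd5 passed once, without WT replicate 2 (edgeR adjusted p = 0.018).

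Cd83 and Cd86 are light zone markers. Of 18 other genes of the light zone programme, 8 rose while 0 fell (median log2 fold change 0.75). Ccnd2, a D cyclin, rose from 47.1 ± 10.4 to 261 ± 47.5 CPM, and Irf4, Nfkbia and Cd69 rose by 2.11, 0.94 and 1.03 in log2. The count of rises was 5 without WT replicate 1, WT replicate 3 or p52Ki replicate 3. Traf1, a signalling adaptor that NF-kB induces, was at 178 ± 41.9 and 96.5 ± 38.6 CPM, lower in every p52Ki library without passing (edgeR adjusted p = 0.139).

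Of 15 dark zone genes 10 fell while 0 rose (median log2 fold change -1.30), and 6 fell without WT replicate 1, WT replicate 4 or p52Ki replicate 3. Kif20a, Ccnb2 and Aurka, which act in mitosis, fell by 1.63, 1.28 and 1.27 on the log2 scale. Of 12 other germinal centre B cell genes 9 fell and 0 rose (median -1.24), among them Neil1, Gna13, Rassf6 and Gcsam with log2 fold changes of -1.40, -0.84, -2.05 and -2.14. A list of 12 genes of resting follicular B cells had 8 that rose and none that fell (median 1.57), and the 4 of smallest p were Ccr7, Cd38, S1pr1 and Klf2, with log2 fold changes of 2.92, 1.83, 2.38 and 2.34. Fcer2a, Cr2 and Bach2 of that list lay below 0 without passing, at -0.26, -0.02 and -0.39 (edgeR adjusted p = 0.551, 0.982 and 0.114). Bach2 was lower in every p52Ki library. Whether the mixture of B cell stages has a part in the values of the 8 genes was not tested.

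**Figure D4:**
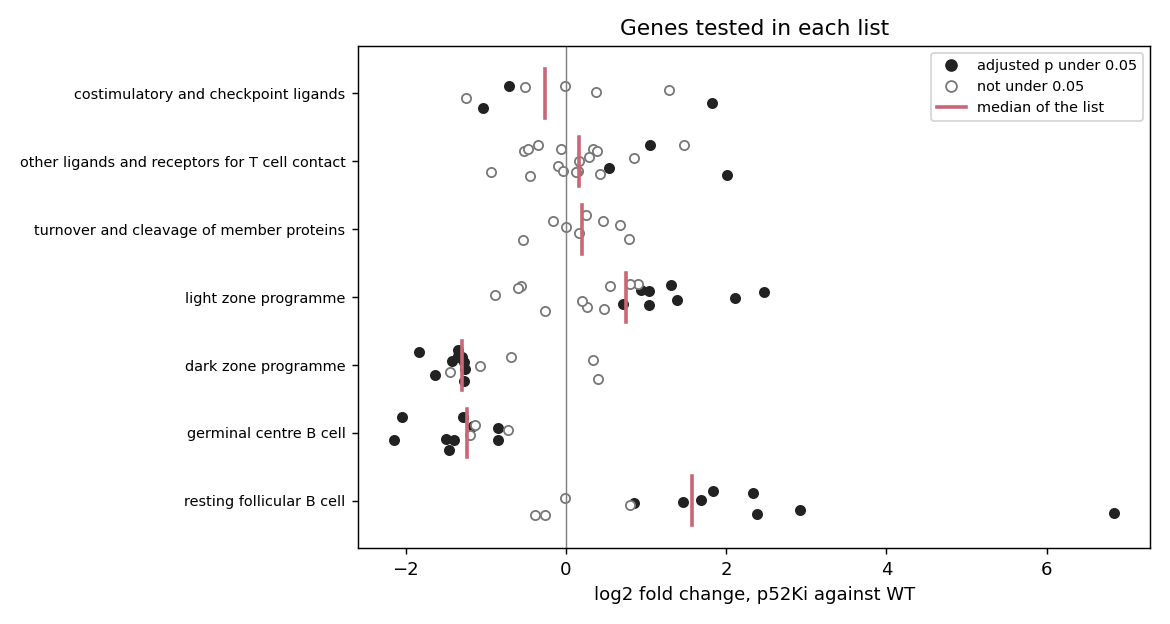
Log2 fold change of p52Ki against WT (horizontal axis) for each gene tested in 7 lists, with filled points for an adjusted p under 0.05 and a line at each list's median. The medians of the dark zone and germinal centre lists lie at -1.30 and -1.24 and those of the light zone and follicular lists at 0.75 and 1.57, and the point farthest right is Il7r, which had 2 counts in WT.

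Dendritic cells and macrophages also carry several of these ligands. Of 12 dendritic cell markers 3 were tested, and Flt3, a cytokine receptor, was at 58.5 ± 10.3 and 21.6 ± 9.59 CPM, a fall whose call did not survive the loss of WT replicate 2, 3 or 4, nor that of p52Ki replicate 3 or 5. Batf3 and Cd209a had 0 counts throughout. Among the others not tested, summed counts in WT and p52Ki were higher in p52Ki for Itgax (0 and 74), Siglech (0 and 63), Clec9a (0 and 19), Clec10a (1 and 10) and Ccl22 (53 and 70). They were lower in p52Ki for Zbtb46 (55 and 26) and Xcr1 (14 and 0). The summed list ran from 125 to 213 CPM in WT against 155 to 213 CPM in p52Ki. Most of it was Flt3 and Cst3, the latter at 103 ± 29.9 and 136 ± 21.1 CPM without passing (edgeR adjusted p = 0.324). Of 12 macrophage and monocyte markers 9 were tested and 0 passed (edgeR), with sums of 60.1 to 199 CPM in WT and 123 to 282 CPM in p52Ki. Ly6c2 and Lyz2 were higher in each p52Ki library, at 26.4 ± 10.3 against 3.53 ± 2.69 CPM and 28.5 ± 21.5 against 7.52 ± 4.17 CPM, without passing. Other fits counted rises in this list, namely 1 without WT replicate 1, 1 with no filter on low counts, 2 at 10 CPM in 4 libraries, 2 with DESeq2, 1 with limma-trend and 1 on thinned counts.

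Of 14 T and NK cell markers 3 were tested, and the list summed to 182 to 218 CPM in WT against 257 to 320 CPM in p52Ki, most of it Cd2. Of the 11 with too few counts to test, 7 had more counts in p52Ki (Cd3d 2 and 27 in WT and p52Ki, Cd3g 26 and 42, Cd8a 0 and 18, Cd8b1 0 and 18, Trac 12 and 30, Nkg7 24 and 67, Klrb1c 0 and 25). The other 4 had fewer (Cd3e 11 and 2, Cd4 36 and 28, Thy1 2 and 0, Ncr1 32 and 29). These counts are summed over a genotype and can come from few libraries. In p52Ki the SD between libraries exceeded the mean for Cd3d (0.827 ± 1.85 CPM) and Cd8a (0.552 ± 1.23 CPM), among others. In WT the SD exceeded the mean for Cd4 (1.18 ± 2.36 CPM) and Ncr1 (1.11 ± 2.21 CPM), among others. Il7r and Cd2, the latter also carried by mouse B cells, rose, though only 1 did so without any single library other than p52Ki replicate 4. The 8 neutrophil markers included 6 with 0 counts. The plasma cell list summed to 1804 to 2219 CPM in WT and 963 to 1601 CPM in p52Ki. Of its 7 genes tested Irf4 rose and Jchain and Slamf7 fell, with only 1 of these falls if WT replicate 3 or 4, or p52Ki replicate 3 or 5, was omitted, and 2 rises if WT replicate 2 was. Sdc1, which encodes the plasma cell marker CD138, was higher in every p52Ki library, at 22.0 ± 11.5 against 1.21 ± 2.42 CPM, without passing (edgeR adjusted p = 0.0762). The stromal and follicular dendritic cell list summed to 41.0 to 105 CPM in WT and 135 to 271 CPM in p52Ki, and 2 of its genes were tested. Most of this sum was Pecam1, whose mean was 71.4 ± 33.2 CPM for WT libraries and 183 ± 54.6 CPM for p52Ki libraries. Pdgfrb and Clu had only 4 and 12 counts, all of them from p52Ki libraries. Mfge8, made by follicular dendritic cells among others, was at 3.99 ± 4.89 CPM in WT against 21.5 ± 12.0 CPM in p52Ki (edgeR adjusted p = 0.165), and DESeq2 and limma-trend each called 2 rises in the list. Pecam1, also an endothelial gene, rose, a call lost on omitting WT replicate 2 or 3, or p52Ki replicate 1, 3 or 5, while 3 collagen genes had 0 counts. The part of such cells in the values of the 8 genes was not tested.

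Genes with the most similar pattern were sought among 6874 genes by the root mean square difference in log2 CPM over the 9 libraries, after each gene was centred on its mean. For Cd274 these were Selplg, the selectin ligand PSGL-1, and Ceacam1, an adhesion receptor, at differences of 0.255 and 0.257. For Cd86 they were Nup205 (0.232) and Atg4a (0.267), for Cd83 Scaf11 (0.135) and Actr3 (0.136), for Icosl Polg (0.191) and Kpna1 (0.240), and for Btla Scamp2 (0.148) and Apobec3 (0.157). Likeness was looser for the genes of few counts, with Apbb3 (0.298) and Plcb2 (0.349) nearest to Tnfrsf14, Trmu (0.804) to Pdcd1lg2, and Hgsnat (0.987) and Armcx2 (1.03) to Cd80.

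**Figure D5:**
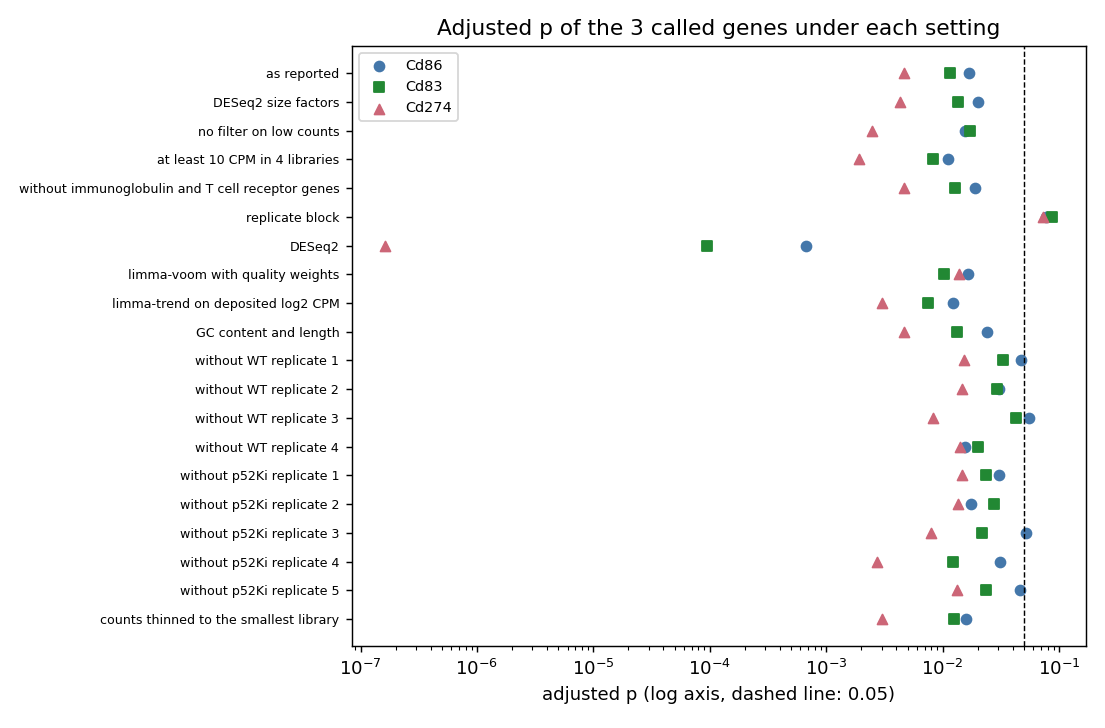
Adjusted p (horizontal log axis, dashed line at 0.05) of Cd86, Cd83 and Cd274 as reported and under each of 19 other settings (rows). Outside the fit with the replicate number as a block, only Cd86 lies above the line, without WT replicate 3 (0.0557) and without p52Ki replicate 3 (0.0516).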

How the data were processed

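SMART-Seq v2 cDNA and Nextera XT libraries, per the labels' protocols, carry no strand mark and no molecular identifiers, so reads are not independent molecules. The tools named in the submitters' processing notes are HISAT2 2.1.0, featureCounts (Subread 1.6.2) and SAMtools 1.8, and the build is GRCm38. The authors deposited raw counts per gene, and log2 CPM values for 12849 genes. The deposited log2 values equalled edgeR log CPM (TMM, prior count 2) from the counts to within 4.97e-14.

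The counts were tested in R 4.3.3 with edgeR 4.0.16 (filterByExpr, TMM, robust quasi-likelihood F test, no covariate, all 9 libraries), two-sided, with Benjamini-Hochberg adjustment over all genes. DESeq2 1.42.0 and limma 3.58.1 served as alternatives. SE is the log2 fold change divided by the root of F. Positions and exonic lengths are from GENCODE M21, in which all 55536 identifiers were found. Library pairs within a genotype differed by 24.2 to 47.4 times counting noise (chi-square per degree of freedom), so none was the same library deposited again, which does not show that they came from separate mice. A simulation altered 100 genes by 2-fold and 100 by 4-fold, and 12256 genes were tested in it. It gave 76 calls, of which 3.95% were false. Among the altered genes, it found 16% at 2-fold and 57% at 4-fold. The data gave 1096 calls, so the adjusted p of 0.05 was harder to reach in the simulation. These rates therefore do not measure how many changes of that size were found in the data.

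The genes and lists were chosen with earlier results of these data known. All 8 genes are named. From each other list up to 4 called genes of smallest p in each direction are named, or 2 where none was called, and for each of the 8 the 2 genes of most similar pattern with a mean log2 CPM of at least 4. Icam1, Il21r, Traf1, Pdcd1, Cd160, Rgmb, Cxcr4, Foxo1, Fcer2a, Cr2, Bach2 and the cell type markers were named after their values were seen. Some genes that this rule names are not reported here. Alternatives comprised other scaling and filters, other tools, a GC content and length correction, removal of antigen receptor genes and each library left out.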

Additional observations from a re-analysis of the deposited data

Results flagged for a closer look

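Cd80 in WT replicate 1, at 10.4 CPM (79 counts), stood apart from the other 3 WT libraries, the next of which had 1.99 CPM. The gap was 0.927 of the group's range, above Dixon's 95% critical value for 4 samples. Chance flags about 1 in 20 groups, and 16 groups were examined. Cd80 did not pass without that library either, at a log2 fold change of 1.6 (edgeR adjusted p = 0.56). In WT replicate 1, Cd86 and Cd83 were within the range of the other WT libraries.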

How the results depend on the processing

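Over 149 refits of the 8 genes (19 settings, fewer where a gene fell under a filter), 133 kept direction and call, 5 lost a call and 11 changed sign, the latter all among genes not called. Btla, at -0.01, took values of 0.0205 with DESeq2 size factors, 0.00728 with no filter, 0.0289 at 10 CPM in 4 libraries, 0.00306 without antigen receptor genes, 0.0205 with DESeq2, 0.00168 after GC and length correction, 0.000595 with counts thinned to the smallest library (a setting chosen after seeing the data), and 0.199, 0.0614 and 0.0981 without WT replicate 3, p52Ki replicate 2 and p52Ki replicate 4. Btla otherwise kept its sign, the lowest value being -0.0961 without WT replicate 2. Cd80 was at -0.24 under limma-voom. Cd80, Pdcd1lg2 and Tnfrsf14 had no value at 10 CPM in 4 libraries. The replicate block, fitted to 8 libraries without p52Ki replicate 5, called 108 genes, 0 risers and 0 fallers among the 8, with Cd274, Cd86 and Cd83 at adjusted p of 0.0734, 0.0772 and 0.0873 and log2 fold changes of 1.76, -0.97 and -0.61. Under it the dark zone list had 0 falls (10 as reported), the germinal centre list 2 (9), and the light zone, follicular and T cell contact lists 4, 4 and 1 rises (8, 8 and 3). The contact list had 5 rises and 1 fall with DESeq2 and 1 fall with limma-trend, and the follicular list 1 fall after GC and length correction. The numbers share nothing else in the labels: same-numbered libraries deviated together at correlations across genes of -0.042 to -0.00898, other pairs at -0.0472 to 0.0734, and 0 of 8 libraries correlated best with their own number. Without the block, the same 8 libraries gave 716 calls. The count of 1096 genes was 1766 with DESeq2 and 625 to 1108 with each library left out, falling to 714 and 711 on omitting WT replicate 1 or 4, and 651, 625 and 716 when p52Ki replicate 1, 3 or 5 was omitted. Among the 8, 1 to 2 fell and 1 rose with each library left out. Of 435 refits of named list genes, 416 kept their call or lack of one, 18 lost it (10 under the block, of which Lgals9 and Ccnb2 were both at 0.0508) and 1 gained one. Depth limits Cd80, Pdcd1lg2 and Tnfrsf14, where 1 count was worth 0.131 to 0.217 CPM.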
